A study of Mus musculus with 10 samples.

Results

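Among the accessible sites of immortalized mouse embryo fibroblasts (iMEF), 1353 lay in gene deserts. A site was counted as a desert site when its middle lay more than 200 kb from every annotated transcript start of any gene type. The rule used positions only, and it was applied to the 150083 sites on chromosomes 1 to 19 of the mouse genome build mm10 (GRCm38), out of 153924 sites listed in all. Desert sites made up 0.902% of the autosomal sites (95% Wilson interval 0.855 to 0.951%). The name covers distance from starts and not absence of genes, because 375 of the 1353 sites (27.7%, 25.4 to 30.2%) lay inside the body of a long annotated gene.

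The sites were measured by ATAC-seq, in which the Tn5 transposase cuts open chromatin and the cut ends are sequenced. The iMEF cells were a line that proliferated in dependence on a lentiviral fusion of FKBP12 F36V, 2 HA tags and human ASH2L, after exon 4 of the endogenous Ash2l had been deleted. ASH2L belongs to the enzyme complexes that place methyl groups on lysine 4 of histone H3, and dTAG-13 is a PROTAC that brings the FKBP part to the E3 ubiquitin ligase subunit Cereblon for degradation. The 10 libraries came from control cells without dTAG-13, given ethanol instead, and from cells given dTAG-13 for 30 min, 4 h, 8 h or 24 h, with 2 replicates in each of the 5 groups. All groups carried the fusion and the deleted endogenous gene, so no group had wild-type Ash2l. The list analysed gave the chromosome, start and end of each site found in any library. It held no signal, no count and no label of the library or time point, so desert sites could not be compared between time points and the sequencing depth behind a site was unknown.

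Gene deserts are long stretches of mammalian chromosomes without transcript starts. They are rich in adenine and thymine, many flank genes for transcription factors, signals or neuronal adhesion proteins, and some hold enhancers that act on a promoter far away. In fibroblasts, distal open sites are commonly bound by AP-1 (dimers of Fos and Jun proteins), TEAD factors (the DNA-binding partners of YAP and TAZ) and RUNX factors, while CTCF marks the anchors of chromatin loops.

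The DNA under a few desert sites shows what the counts given further on refer to. The sequences are the middle 200 bp of a site on the plus strand of mm10, written 5′ to 3′. Capitals mark a match to the AP-1 consensus TGAGTCA, which reads TGACTCA on the other strand. The first set holds the 4 widest of the desert sites with 2 AP-1 matches in this window, which was the highest number found.
Between Dnah5 and Ctnnd2, chr15:29146953-29147152: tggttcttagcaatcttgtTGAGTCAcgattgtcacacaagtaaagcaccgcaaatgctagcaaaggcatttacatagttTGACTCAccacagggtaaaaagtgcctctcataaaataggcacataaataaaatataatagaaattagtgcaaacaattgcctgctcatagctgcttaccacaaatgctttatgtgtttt
Between Kcnj2 and Sox9, chr11:112442807-112443006: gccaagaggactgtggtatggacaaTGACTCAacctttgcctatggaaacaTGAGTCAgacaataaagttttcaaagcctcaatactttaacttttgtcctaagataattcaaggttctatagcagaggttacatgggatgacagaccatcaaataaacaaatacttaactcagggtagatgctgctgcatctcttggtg
Within Lrrc4c, chr2:96736142-96736341: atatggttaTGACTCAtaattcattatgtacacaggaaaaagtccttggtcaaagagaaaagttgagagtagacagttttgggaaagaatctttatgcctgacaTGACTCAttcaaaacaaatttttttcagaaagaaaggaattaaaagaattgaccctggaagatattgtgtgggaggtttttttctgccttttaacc
Between Kif2b and Car10, chr11:92495333-92495532: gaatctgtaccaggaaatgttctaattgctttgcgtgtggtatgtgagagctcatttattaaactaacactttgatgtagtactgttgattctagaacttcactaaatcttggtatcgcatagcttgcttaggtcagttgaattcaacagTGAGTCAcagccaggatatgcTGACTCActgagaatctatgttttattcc
The site between Kcnj2 and Sox9 was 1299 bp wide and lay 226492 bp from the nearest start, and Sox9 is the transcription factor that directs cartilage formation. None of the 4 windows held a TEAD or CTCF match.

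The next set holds the 3 widest desert sites with a match to the CTCF core consensus in the same window, with the match in capitals. They are shown because such sites were rare in deserts.
Between Slc16a7 and Lrig3, chr10:125725394-125725593: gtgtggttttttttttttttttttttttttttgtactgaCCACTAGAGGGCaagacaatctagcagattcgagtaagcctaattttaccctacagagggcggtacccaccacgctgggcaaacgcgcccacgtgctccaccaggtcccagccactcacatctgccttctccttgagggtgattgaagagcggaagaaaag
Within Prkg1, chr19:31342301-31342500: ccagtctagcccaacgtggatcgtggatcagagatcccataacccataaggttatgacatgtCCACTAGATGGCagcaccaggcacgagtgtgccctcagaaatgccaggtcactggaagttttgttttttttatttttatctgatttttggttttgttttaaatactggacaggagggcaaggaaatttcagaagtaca
Between Tom1l1 and Kif2b, chr11:91289216-91289415: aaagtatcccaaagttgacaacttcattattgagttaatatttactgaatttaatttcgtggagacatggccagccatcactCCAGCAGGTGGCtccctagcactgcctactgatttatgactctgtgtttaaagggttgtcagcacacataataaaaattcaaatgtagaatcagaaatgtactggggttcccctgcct
These sites were 954, 867 and 835 bp wide and lay 212962, 229854 and 288242 bp from the nearest start.

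The last sequences come from the widest desert site and from the desert site farthest from any start among those whose sequence is printed here. The widest desert site, between Gdf6 (a bone morphogenetic protein) and 2610301B20Rik, spanned chr4:10234686-10237538, or 2853 bp, and its middle held no AP-1, TEAD, RUNX or CTCF match. The second sequence belongs to a site within Ptprd (a receptor tyrosine phosphatase of neurons). Its middle was 608935 bp from the nearest start, and it was only 204 bp wide, with 1 AP-1 match in capitals.
Between Gdf6 and 2610301B20Rik, chr4:10236012-10236211: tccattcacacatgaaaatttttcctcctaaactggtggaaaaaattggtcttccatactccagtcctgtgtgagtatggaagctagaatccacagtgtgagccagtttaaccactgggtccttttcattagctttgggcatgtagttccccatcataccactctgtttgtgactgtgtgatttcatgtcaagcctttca
Within Ptprd, chr4:77602705-77602904: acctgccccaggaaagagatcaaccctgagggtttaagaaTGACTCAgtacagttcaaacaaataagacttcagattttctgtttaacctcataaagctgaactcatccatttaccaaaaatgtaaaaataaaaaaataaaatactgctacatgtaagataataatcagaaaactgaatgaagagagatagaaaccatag
Over its whole width the widest site held 1 AP-1, 1 TEAD and 1 RUNX match.

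Deserts held fewer sites per length than the rest of the autosomes. Desert sequence, meaning every base more than 200 kb from a start, came to 54.0 Mb, or 2.25% of the sequenced autosomes. It held 25.1 sites per Mb (exact Poisson interval 23.7 to 26.4), against 63.5 per Mb elsewhere, a ratio of 0.395 (0.374 to 0.416). Desert sites covered 1.51% of their sequence, and the other sites covered 4.58% of theirs. The density was lower in deserts on 19 of 19 autosomes. These intervals cover counting error alone, and neighbouring sites are not independent of each other.

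Site density fell with distance from the nearest start up to 500 kb. It was 153 sites per Mb within 1 kb of a start, 65.5 from 1 to 10 kb, 59.3 from 10 to 50 kb, 43.3 from 50 to 100 kb and 35.2 from 100 to 200 kb. Inside the deserts it was 25.7 per Mb from 200 to 300 kb (976 sites, 24.1 to 27.4) and 22.4 from 300 to 500 kb (327 sites, 20.02 to 24.9). Beyond 500 kb there were 50 sites in 1.45 Mb, or 34.5 per Mb (25.6 to 45.5), an interval that included the values of the classes from 50 to 300 kb. Those 50 sites came from 6 deserts, with 18 in Ptprd, 13 in the desert over Dcc, the netrin receptor, and 10 between Cobl and Pom121l12.

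**Figure D1:**
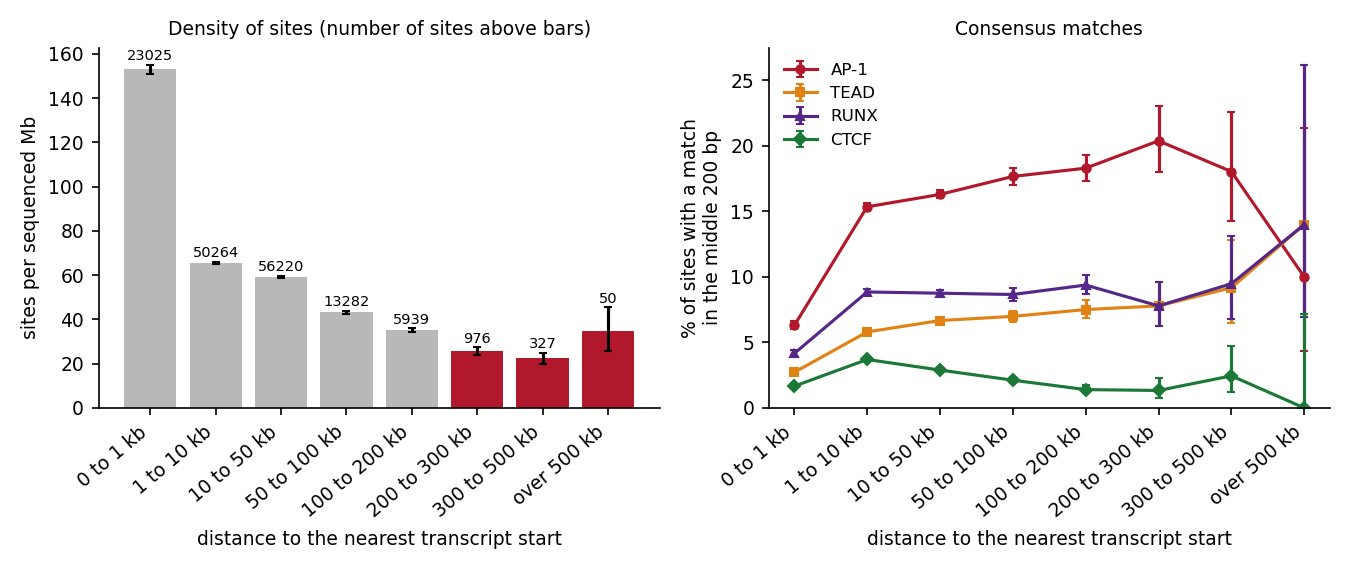
Left, sites per sequenced Mb by distance to the nearest transcript start, with exact Poisson 95% intervals, desert classes in red and the number of sites above each bar. Right, percent of sites with a consensus match in the middle 200 bp, with 95% Wilson intervals; density was 153 per Mb within 1 kb, 22.4 at 300 to 500 kb and 34.5 beyond 500 kb, and the AP-1 share was 6.29% within 1 kb, 20.4% at 200 to 300 kb, 18.04% at 300 to 500 kb and 10.0% beyond.

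Chromosomes differed widely in desert density. Chromosome 6 had 6.06 desert sites per Mb (24 sites in 19 deserts) and chromosome 7 had 6.37 (8 sites). Chromosome 15 had 47.9 (129 sites), chromosome 19 had 45.4 (57 sites), chromosome 12 had 45.3 (79 sites) and chromosome 10 had 42.8 (65 sites). On chromosomes 15 and 10 the density outside deserts was also the highest of the autosomes, at 101.1 and 84.8 per Mb. Chromosome 12 came nearest to parity, with a ratio of 0.834 between deserts and the rest, and chromosome 6 was the lowest at 0.108. The largest numbers of desert sites were on chromosomes 2 (162 sites) and 4 (132 sites).

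Counted as uninterrupted stretches, the desert sequence fell into 336 deserts with a median length of 106 kb. Of these, 215 held at least 1 site (64.0%, 58.7 to 68.9%) and 121 held none. Deserts with no site were shorter, with a median of 60.1 kb against 140 kb for those with a site. The sites were gathered in a minority of deserts, since 45 deserts with 10 or more sites held 760 of the 1353. Another 48 deserts held 1 site each. The 5 fullest deserts held 166 sites (12.3%), and each was longer than 500 kb. These counts were not adjusted for length, and longer deserts have more room for sites.

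The longest desert was also the fullest. It lay between Mbd2 and Dcc on chromosome 18, positions 71107652 to 72151016, spanned 1043 kb and held 43 sites, of which 35 lay within Dcc. Its density was 41.2 per Mb, the median width of its sites was 505 bp, and 7 of them had an AP-1 match. The 3 desert sites farthest from any start were all in Dcc, at 718076, 713758 and 695438 bp.

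The desert toward the 5′ end of Ptprd, chr4:77158499-78011738, held 36 sites in 853 kb (42.2 per Mb), and all 36 lay inside the gene. Gpc6, which encodes a glypican that carries heparan sulfate on the cell surface, contained a 628 kb desert at chr14:117125937-117753846 with 26 sites (41.4 per Mb). The desert between Cobl (an actin nucleator) and Pom121l12, chr11:13197667-13962078, held 25 sites in 764 kb (32.7 per Mb). No coding gene lay across it.

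The densest desert of at least 500 kb lay between Gm10800 and Rag2, a subunit of the lymphocyte recombinase, at chr2:100828044-101370623. It held 36 sites in 543 kb, or 66.3 per Mb, and no coding gene lay across it. Its sites were narrow, from 185 to 1016 bp with a median of 338 bp, against 520 bp for the other desert sites. AP-1 matches were found in 3 of the 36 (8.33%, 2.87 to 21.8%), against 19.7% of the other desert sites. Repeat-masked bases made up 11.8% of these sites on average, and 1 site was mostly masked. The sites were spread over the stretch, with a median gap of 5932 bp and a largest gap of 73914 bp. Other deserts between Gm10800 and Rag2 were sparse, with 2 sites in 290 kb (6.89 per Mb) and 1 site in 104 kb (9.64 per Mb). The desert between Bmp2, a bone morphogenetic protein, and Hao1 lay at chr2:133784422-134354306, with 24 sites in 570 kb (42.1 per Mb, the next value after the 42.2 per Mb of Ptprd), of which 9 held an AP-1 match. It began 232 kb from the start of Bmp2.

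Other deserts of similar length were empty. No site was listed in the 856 kb between Dsel and Cntnap5a (chr1:114164135-115019762), which had 5 sites in the 500 kb on either side together. None was listed in 565 kb between 1700015G11Rik and Luzp2 (chr7:53127071-53691888), where the flanks held 0 sites. The 435 kb between Dthd1 and Nwd2 (chr5:63013824-63449101) were empty although their flanks held 35 sites. Among the 19 deserts of at least 500 kb, 17 held a site and the median density was 25.5 per Mb. Across the 174 deserts of at least 100 kb, density ranked with the number of sites in the 500 kb on each side (Spearman rho 0.75) and hardly with GC content (0.12) or length (-0.03). These correlations are descriptions over stretches of the same list, and some neighbouring deserts share a flank.

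**Figure D2:**
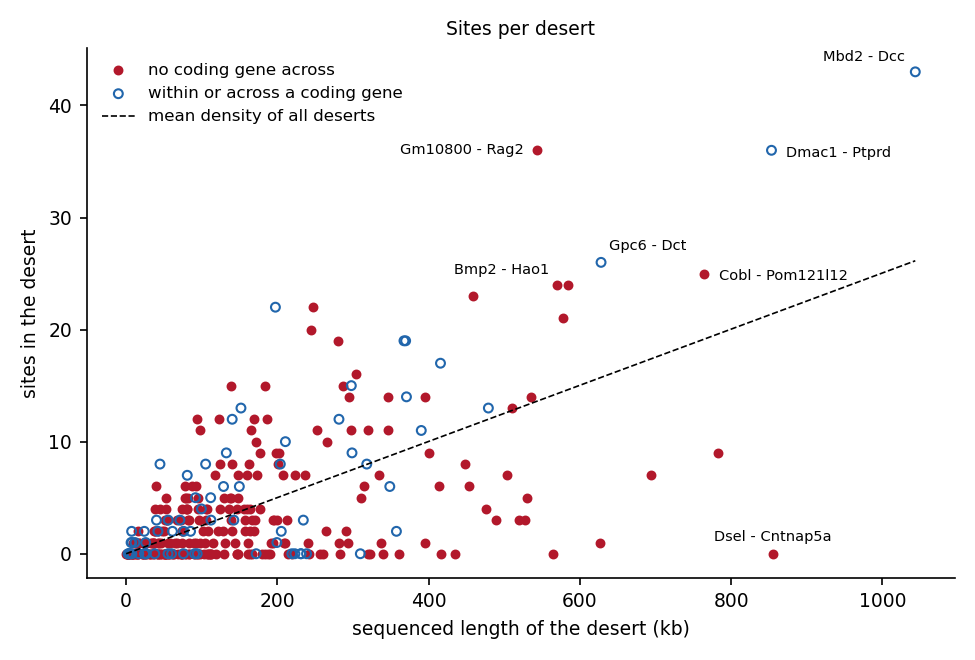
Each point is 1 of the 336 deserts, with its sequenced length in kb on the x axis and its number of sites on the y axis. Open blue points overlap a coding gene, red points do not, and the dashed line is the mean of 25.1 sites per Mb; the 1043 kb Mbd2 - Dcc desert held 43 sites and the 856 kb Dsel - Cntnap5a desert held none.

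Deserts beside genes of 3 lists were compared with the others. A desert was counted as beside a gene when that gene had the nearest coding start on either side, at any distance. The deserts named for each list were the 4 with the most sites, plus others between the same genes. Sparser or empty deserts of each list were mostly not named. The list of 57 genes for signals and matrix had 18 genes beside a desert, and 23 of their 26 deserts held a site. Those deserts held 151 sites in 3.54 Mb, or 42.7 per Mb (36.1 to 50.1), against 24.7 per Mb (23.1 to 26.3) in the 232 deserts with no listed gene. Examples were the Bmp2 desert and the deserts between Epha7, an ephrin receptor, and Map3k7, a kinase of the TGF-β and cytokine pathways. There were 3 of them, with 16, 15 and 3 sites, at 52.7, 81.7 and 41.4 per Mb. The one at 81.7 per Mb began 2767 kb from the Epha7 start and ended 200 kb from that of Map3k7. A desert within Nrg1, the gene of a ligand for ErbB receptors, held 15 sites at 50.4 per Mb.

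Of 61 mesenchymal transcription factor genes, 6 stood beside a desert. Their 9 deserts, of which 8 held a site, had 44 sites in 1.495 Mb, or 29.4 per Mb (21.4 to 39.5), an interval that included the value of the deserts with no listed gene. The desert between Kcnj2 and Sox9, chr11:112307439-112469397, held 8 sites (49.4 per Mb) and ended 313 kb from the Sox9 start. The 3 deserts between Zeb2, a zinc finger factor of mesenchymal cells, and Acvr2a held 14, 9 and 3 sites, at 26.2, 45.4 and 31.0 per Mb. They began 1690, 2625 and 892 kb from the Zeb2 start, in that order. The 52.4 kb desert beside Meis2, a homeobox factor, held 5 sites at 95.4 per Mb.

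The cadherins and neuronal adhesion genes were the list most often found beside deserts, with 43 of 65 genes. Of their 69 deserts, 39 held a site (56.5%), against 62.5% of the deserts with no listed gene. The 261 sites in 12.6 Mb gave 20.7 per Mb (18.3 to 23.4). The Dcc desert belonged to this list. So did the 2 deserts between Cdh8 and Cdh11, the latter a cadherin of mesenchymal cells, with 24 and 6 sites at 41.1 and 14.5 per Mb. A desert reaching across the 3′ part of Cdh12 held 19 sites at 51.7 per Mb, and one within Ctnna3, an alpha-catenin, held 17 at 40.9 per Mb. Which genes the desert sites act on was not measured.

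Inside gene bodies, judged by the middle of a site, 371 of the 375 desert sites lay in coding genes. Only 4 had their middle in an exon, and exons overlapped by other parts of a site were not counted. The exonic ones were in Pappa (a protease of insulin-like growth factor binding proteins), Rbms3 (an RNA-binding protein), Csmd3 and Lsamp (a neuronal adhesion protein), with widths of 386, 355, 708 and 909 bp. By comparison, 53.8% of the other distal sites lay inside an annotated gene. In all, 48 genes held a desert site, and Ptprd (36 sites in a gene of 2271 kb), Dcc (35) and Gpc6 (26) together held 97. Rad51b, a gene of recombinational DNA repair, held 22, and Lsamp and Npas3 held 19 each. Desert sites inside genes had a median width of 549 bp (511 to 619) and an AP-1 share of 17.1% (13.6 to 21.2%). Those outside genes had a median of 505.5 bp (477 to 532) and a share of 20.3% (17.9 to 23.0%), so the intervals overlapped for both measures.

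Desert sites had a smaller median width and a lower GC content than the pooled other distal sites. Other distal sites were defined as sites outside deserts that did not overlap 1 kb on either side of a start, and promoter sites as those that did. Desert sites ranged from 177 to 2853 bp with a median of 517 bp (order-statistic 95% interval 492 to 540). The medians were 568 bp (565 to 571) in 122986 other distal sites and 1060 bp (1049 to 1071) in 25744 promoter sites. The desert median was the smaller of the distal pair on 14 of 19 autosomes. All sites from 100 to 200 kb of a start had a median of 535 bp (524 to 547), whose interval overlapped that of desert sites. Sites of 1500 bp or more numbered 28, or 2.07% (1.44 to 2.97%), against 2.92% of other distal and 24.4% of promoter sites.

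The median GC content was 39.5% in desert sites, 44.5% in other distal sites and 53.8% in promoter sites, and desert sites were below other distal sites on 19 of 19 autosomes. It fell by steps with distance and was 41.1% at 100 to 200 kb. The desert sequence as a whole had 38.2% GC. The median ratio of observed to expected CpG was 0.131 in desert sites, 0.177 in other distal and 0.467 in promoter sites. A CpG-rich composition (GC over 50% and a ratio over 0.6) was met by 1 desert site, or 0.0739%. It was also rare in other distal sites, at 0.715%, against 36.9% of promoter sites. Repeats covered 39.4% of the desert sequence and on average 17.3% of a desert site, close to the 17.1% of other distal sites. In 98 desert sites (7.24%, 5.98 to 8.75%) most of the middle was repeat, against 7.79% of other distal sites.

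Desert sites were farther apart than other distal sites. The median gap to the nearest site was 6846 bp (6317 to 7277), against 3725 bp (3690 to 3758). A neighbour within 10 kb was found for 826 desert sites (61.0%), against 82.4% of other distal sites, and 66 desert sites (4.88%, 3.85 to 6.16%) stood more than 50 kb from any other site, against 1.00%. Still, 462 desert sites formed 119 runs of 3 or more joined by gaps of up to 10 kb. The longest run held 10 sites in 42.6 kb at chr14:17402649-17445234, between Rarb and Thrb, the genes of retinoic acid and thyroid hormone receptors. Its sites had widths from 226 to 1882 bp and 1 of them had an AP-1 match. A run of 8 lay at chr9:68956495-68993275, between the coding starts of Rora and Ice2, and a run of 7 at chr15:21512231-21545274 in the desert across Cdh12.

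Of 17 consensus sequences searched on both strands in the middle 200 bp, AP-1 was the most frequent in desert sites. It was found in 263 of 1353 sites (19.4%, 17.4 to 21.6%), in 16.2% of other distal sites (16.0 to 16.4%) and in 7.06% of promoter sites. The surrounding DNA held far fewer matches, with 2.73% of 2706 windows placed 1 kb from the edges of desert sites and 2.58% of 269831 windows of 200 bp tiling the desert sequence. Read in reverse, the same letters were found in 5.62% of desert sites. The desert share was above that of other distal sites on 13 of 19 autosomes. The AP-1 share was 1.199 times that of other distal sites (1.07 to 1.33) and 7.11 times that of flanking windows. It rose with distance already outside the deserts, from 16.3% at 10 to 50 kb to 17.7% at 50 to 100 kb and 18.3% at 100 to 200 kb, and the last value lay inside the desert interval. Within deserts it was 20.4% at 200 to 300 kb, 18.04% (14.3 to 22.6%) at 300 to 500 kb and 10.0% (4.35 to 21.4%) beyond. Over whole sites, 454 (33.6%) held an AP-1 match, against 31.0% of other distal sites.

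TEAD matches (GGAATGT) were found in 113 desert sites (8.35%, 6.99 to 9.95%), against 6.40% of other distal sites and 2.64% of desert windows. The TEAD share rose with distance already outside the deserts, from 5.80% at 1 to 10 kb to 7.51% at 100 to 200 kb. The last value lay inside the desert interval. RUNX matches (TGTGGTT) were found in 114 (8.43%, 7.06 to 10.0%), an interval that held the 8.83% of other distal sites, and in 4.21% of desert windows. At least 1 of AP-1, TEAD, RUNX and CTCF was matched in 458 desert sites (33.9%, 31.4 to 36.4%), against 15.3% of promoter sites and 31.4% of other distal sites, a value at the lower edge of the desert interval.  TEAD was matched in 6.08% of desert sites with an AP-1 match and in 8.90% of those without, with overlapping intervals (3.78 to 9.65% and 7.35 to 10.7%).

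CTCF matches were scarcer in desert sites than in other distal sites. They were found in 21 sites (1.55%, 1.02 to 2.36%), against 3.05% of other distal and 1.83% of promoter sites, and the desert share was the lower of the distal pair on 15 of 19 autosomes. The share fell with distance already outside the deserts, from 3.70% at 1 to 10 kb to 1.40% at 100 to 200 kb. Yet CTCF matches in desert DNA coincided with sites more often than AP-1, TEAD or RUNX matches did. The CTCF consensus had 12 positions and each of the others 7, so these shares compare patterns of unlike specificity. The desert sequence held 78 CTCF matches, and 27 lay inside a site (34.6%, 25.01 to 45.7%), where sites covered 1.51% of the bases. Of 7307 AP-1 matches 547 lay inside a site (7.49%, 6.90 to 8.11%), of 7503 TEAD matches 282 (3.76%) and of 11933 RUNX matches 304 (2.55%). The longer AP-1 form ATGAGTCAT made up 12.4% of the AP-1 matches inside sites (9.93 to 15.5%) and 7.16% of those outside (6.57 to 7.80%).

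Among the remaining motifs, an E-box (CAGATG) was matched in 17.5% of desert sites (15.6 to 19.6%), in 17.2% of other distal sites and in 14.04% of desert windows. C/EBP (TTGCNNAA) was matched in 11.1% of desert sites and was nearly as common in desert windows, at 10.8%. The homeobox letters TAATTA were less frequent in desert sites (5.84%, 4.71 to 7.22%) than in desert windows (9.70%), as were GATA letters (AGATAAG, 1.77% against 3.18%). ETS letters (CCGGAAG) were found in 6 desert sites (0.443%), 0.833% of other distal sites and 5.03% of promoter sites. EGR (GCGNGGGCG), NRF1 (GCGCATGCG), CRE (TGACGTCA) and NFI letters were found in 0 of 1353 sites, which allows a share of up to 0.222% each. EGR letters were found in 4.23% of promoter sites and 0.164% of other distal sites. The other distal shares were 0.0455% for NRF1, 0.220% for CRE and 0.0439% for the NFI pattern of 15 positions. Each of these other distal shares lay below 0.222%, so the counts of 0 do not set desert sites apart from other distal sites. A match describes letters and not binding.

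**Figure D3:**
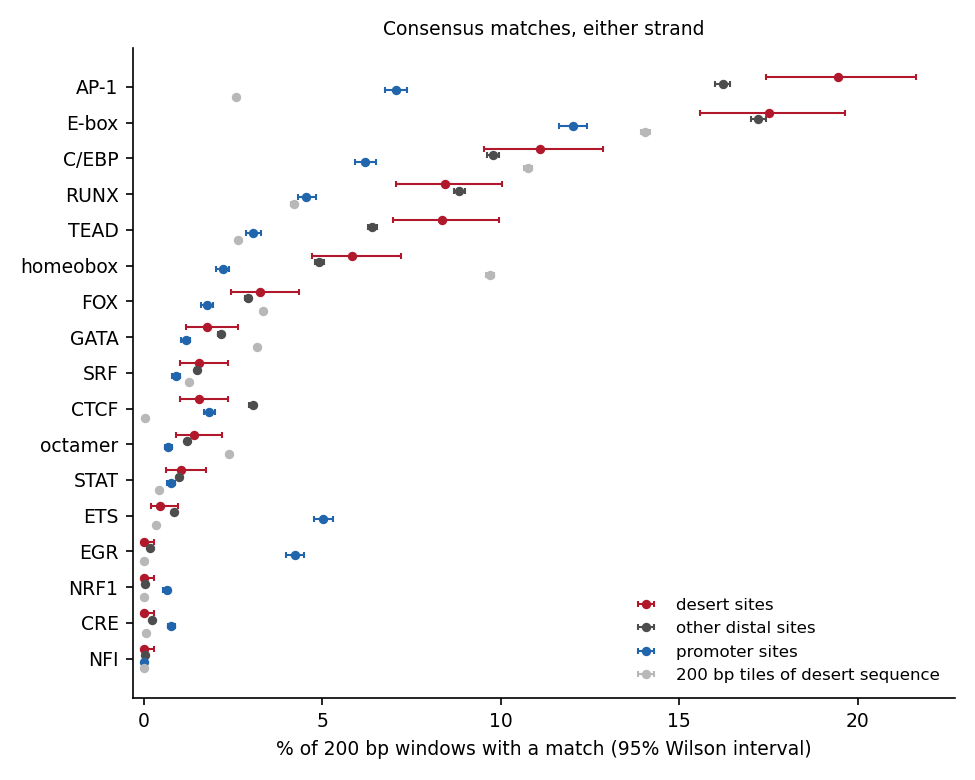
Percent of 200 bp windows with at least 1 match to each of 17 consensus sequences on either strand, for desert sites (red), other distal sites (dark grey), promoter sites (blue) and tiles of desert sequence (light grey), with 95% Wilson intervals. AP-1 stood at 19.4% in desert sites and 2.58% in tiles, and the 1.55% for CTCF in desert sites lay below the 3.05% of other distal sites.

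Matches were denser around the middle of desert sites than farther out. Only 14.3% of desert sites were 1000 bp wide or more, so the outermost 100 bp below lay outside most sites. The ratios therefore mainly set DNA of the site against DNA beside it. Within 500 bp of the middle, the central 100 bp held 144 AP-1 matches and the outermost 100 bp held 21, which is 106 and 15.5 per 1000 sites and a ratio of 6.86. The ratio in other distal sites was 4.82. No interval was computed for these ratios, and the desert one rests on the 21 outermost matches. For TEAD the central and outermost counts were 68 and 29, a ratio of 2.34, against 2.27 in other distal sites. For RUNX they were 76 and 25, a ratio of 3.04, against 1.98. CTCF had 12 central matches and 1 outermost match, a ratio of 12, against 39.4 in other distal sites. Near the middle the desert AP-1 counts were uneven between bins of 20 bp. They were 30.3 per 1000 sites at -10 bp, 11.8 at 10 bp and 26.6 at 90 bp. The list gives no summit, so the middle is that of the interval.

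**Figure D4:**
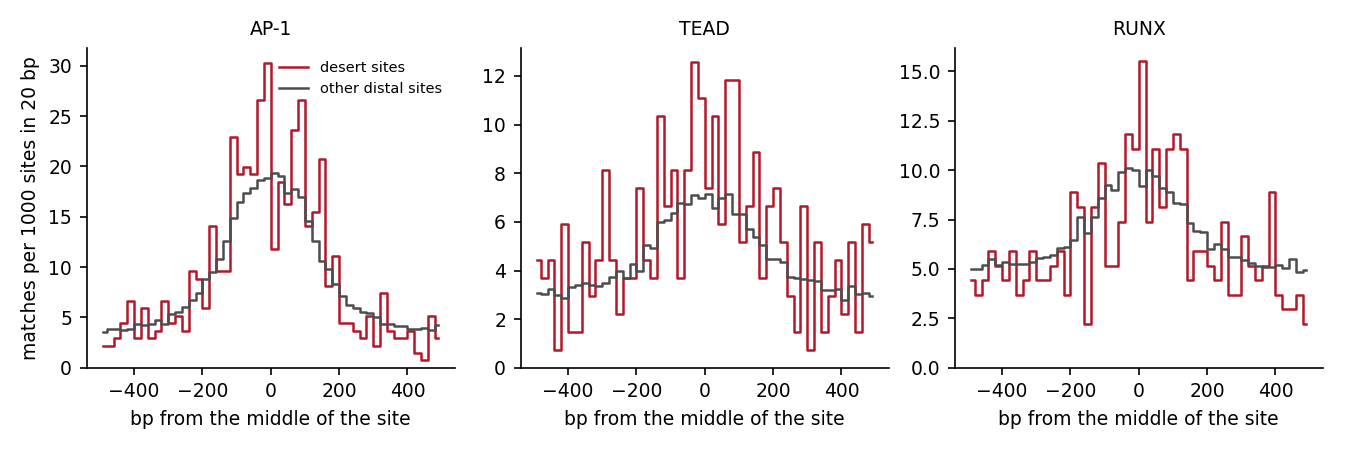
Matches per 1000 sites in bins of 20 bp (y axis) against the distance in bp from the middle of the site (x axis), for desert sites in red and other distal sites in grey. AP-1 was denser around the middle than at the outer ends in both sets, with 106 matches per 1000 desert sites in the central 100 bp and 15.5 in the outermost 100 bp.

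The AP-1 share was also taken by width and GC content. In 3 width classes of near equal size it was 17.1% in the narrowest 455 sites, 21.7% in the middle 447 and 19.5% in the widest 451, with overlapping intervals. RUNX was matched in 11.3% of the widest (8.71 to 14.6%) and 6.71% of the middle class (4.74 to 9.42%). In the 260 desert sites below 36% GC the AP-1 share was 20.8% (16.3 to 26.1%), above the 14.5% (13.7 to 15.3%) of other distal sites of that GC. From 36 to 40% GC it was 19.3% against 16.9%, from 40 to 44% it was 18.6% against 17.8%, from 44 to 48% it was 22.1% against 17.3%, and from 48% it was 10.8% (65 sites) against 13.9%. The intervals of the desert sites overlapped between the GC classes. In each class from 36% GC up, the desert interval held the other distal value. The CTCF share of desert sites was the lower one in 5 of 5 GC classes, and its interval excluded the other distal value below 36% GC, with 1 site of 260 (0.385%, 0.0679 to 2.15%) against 2.72%.

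**Figure D5:**
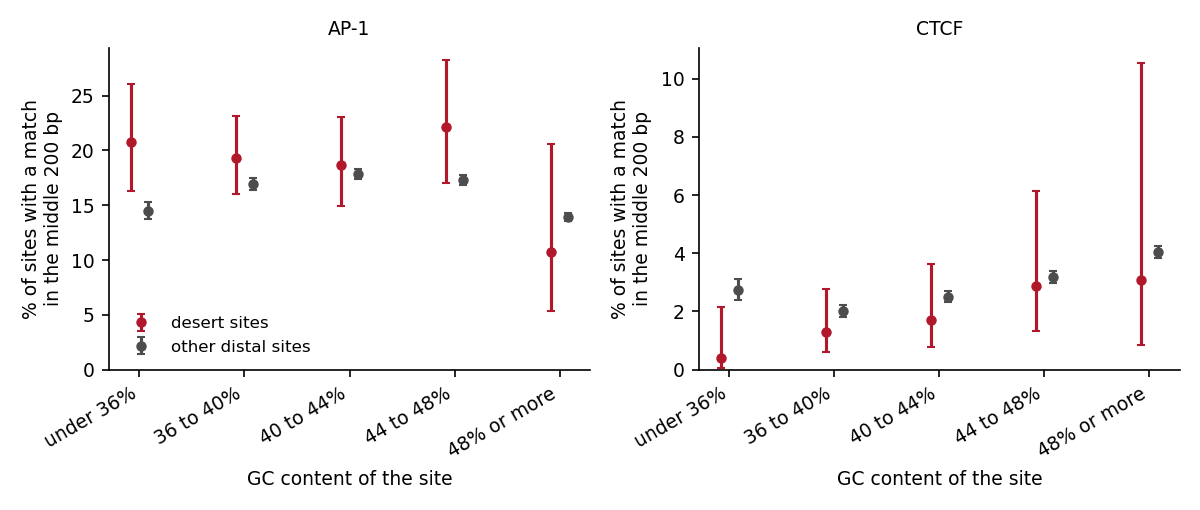
Percent of sites with an AP-1 match (left) or a CTCF match (right) in the middle 200 bp, by GC content of the site, for desert sites (red) and other distal sites (grey), with 95% Wilson intervals. Below 36% GC the AP-1 share was 20.8% in desert and 14.5% in other distal sites.

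AP-1 matches were spread over 123 deserts and CTCF matches over 19. Among the 45 deserts with 10 or more sites, the AP-1 share ran from 0% to 45.5% with a median of 18.2% and quartiles of 11.1 and 25%. The extremes, named after their values were seen, were the desert between Kcnh7 and Fign with 0 of 10 sites and that between Cenpq and Ptchd4 with 5 of 11. Desert sites were mostly unlike each other in sequence. In 26 (1.92%) the middle 200 bp resembled that of another desert site, at 80% identity or more over at least 100 bp, and the largest group of 5 was 89.8% repeat.

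After the widest site, beside Gdf6, came a site of 2384 bp at chr5:85145180-85147563, between Epha5 and Cenpc1, and one of 2075 bp at chr1:14511211-14513285, between Eya1 and Msc. Repeats covered 52.0% of the former and 16.6% of the latter. At the 200 kb limit, the nearest sites inside it were 843 bp wide at 200026 bp from a start (between Lrrn3 and Dnajb9), 1622 bp at 200057 bp (within Lsamp) and 349 bp at 200114 bp. The last lay between the homeobox genes Irx2 and Irx4 and held a CTCF match. The nearest sites outside the limit were 1162 bp wide at 199933 bp, 357 bp at 199932 bp and 322 bp at 199776 bp, with none of the 4 motifs in their middle. Of the 1353 desert sites, 862 (63.7%, 61.1 to 66.2%) were also more than 200 kb from every start in the RefSeq annotation, which differs in the starts it lists.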

How the data were processed

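ATAC-seq was performed on 10 iMEF libraries in 5 groups, and the table used here is the authors' list of positions of all sites. Other tables of the study were not used here. According to their methods, reads were trimmed with Trim Galore, aligned with BWA to mm10, filtered after ENCODE recommendations with SAMtools, merged over replicates with Picard and called as narrow peaks with MACS2. Their DESeq2 tests were not used here. Tool versions, the peak threshold, the handling of the Tn5 offset and the joining of sites over libraries were not given in the sources used here, and each could change the number and width of sites. The protocol text read in the labels described chromatin immunoprecipitation, so the ATAC steps were taken from the methods, in which control cells received ethanol.

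The deposited values are start and end positions in bp, with no score, count or signal (other units). There were 0 columns of single libraries, so the planned test of time points could not be run and depth was unknown. Starts were read as counted from 0 and are printed counted from 1. Distances were taken to 125891 transcript starts on the autosomes from GENCODE mouse release 21, an earlier release than the one the study's methods name. Sequence, GC and repeat masking came from the RefSeq copy of GRCm38.

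A desert was an unbroken stretch with every base over 200 kb from a start, named by the nearest coding gene start on each side. The text names the 5 fullest deserts, the 5 densest of at least 500 kb and the 3 longest empty ones. It also names the 3 widest, farthest and limit sites, and up to 4 deserts per gene list, those with the most sites. Some other deserts between the same genes as a named one were given too. Genes holding the most sites, the longest runs and the exonic sites were named after their counts were seen. Members, gene lists and motifs were chosen with earlier results of these data known. Shares have 95% Wilson intervals, densities exact Poisson intervals and medians order-statistic intervals, for counting error only, and no p-values were computed because sites are not replicates. A count of 0 was taken to allow 3 counts. Motif search and intervals were tested on simulated data. The tools were BLAST 2.17.0, SciPy 1.17.1, Numba 0.67.0, NumPy 2.4.6 and Matplotlib 3.10.9 under Python 3.11.15.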

Additional observations from a re-analysis of the deposited data

Results flagged for a closer look

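Chromosome X was outside the comparisons, and 12 of its 3580 sites met the same distance of more than 200 kb from every start. It was listed because a signal was present in data that the comparisons did not use. The 12 sites lay in 2.74 Mb of desert sequence, or 4.37 per Mb (exact Poisson interval 2.26 to 7.64), below the 6.06 per Mb of chromosome 6, the lowest autosome, although the interval held that value.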

How the results depend on the processing

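The number of desert sites moved with the distance, the annotation and the width required. It was 1353 as reported, 7292 at 100 kb, 50 at 500 kb, 17513 with starts of coding genes only, 5652 with RefSeq starts and 540 when sites narrower than the listed median of 619 bp were dropped. Requiring the distance from both GENCODE and RefSeq starts, an alternative chosen after seeing the data, left 862. The density ratio of 0.395 became 0.498 at 100 kb, 0.551 at 500 kb, 0.428 with coding starts and 0.313 among the wide sites, and stayed below 1 in each. The median width of 517 bp became 543.5 bp at 500 kb and 893 bp among the wide sites, the latter by construction. The AP-1 share of 19.4% became 10.0% at 500 kb, where 5 of 50 sites held a match, and 33.6% over whole sites. The CTCF share of 1.55% became 0% at 500 kb, with 0 of 50 sites. Merging neighbours up to 100 bp apart, or leaving out chromosomes 10 and 15, moved none of these 5 values beyond its interval (or 1.5 times for the number). With other distal sites weighted to the GC classes of desert sites, also chosen after seeing the data, their AP-1 share was 16.6% and the ratio 1.17, while their CTCF share fell from 3.05% to 2.55%, still above the desert interval. Their TEAD share rose from 6.40% to 6.996% with this weighting, which brought it to the lower edge of the desert interval (6.99 to 9.95%). A ratio of CTCF to flanking windows was not given, because 0 of 2706 windows held a match. No paired analysis was possible because no value per library was at hand.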
